A study of Mus musculus with 44 samples.

Results

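The 10 genes described here encode feedback inhibitors of mitogen-activated protein kinase (MAPK) signaling: Spry1, Spry2, Spry4, Spred1, Spred2, Dusp1, Dusp4, Dusp5, Dusp6 and Ier3. They are called the inhibitors here for short, although Ier3, an ERK substrate, is known rather for prolonging ERK activity. They were chosen by name, with no threshold on their values but with earlier results of these data known, and make up 10 of the 12597 genes whose mean normalized count reached 10 in the RNA-seq table. All 10 passed that filter on low values. For the chromatin data, each gene was taken with 20 kb on either side and compared with the peaks of all 32 deposited lists.

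Receptor tyrosine kinases activate RAS, which passes the signal through the kinases RAF, MEK and ERK. ERK activity switches on immediate early genes, among them the very genes that dampen it: Sprouty (SPRY) and SPRED proteins hold back the steps around RAS and RAF, and dual-specificity phosphatases (DUSP) remove the activating phosphates from MAP kinases. In the ovary, ERK signaling in granulosa cells takes part in ovulation and in the expansion of the cells around the oocyte, and GDF9 is a TGF-β family protein from the oocyte that acts on granulosa cells through SMAD2 and SMAD3.

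Granulosa cells came from gonadotropin-primed female mice and were cultured before exposure to recombinant GDF9 or vehicle for 4 h. Bulk RNA-seq covered 2 GDF9 and 2 vehicle libraries, whose labels give no genotype. The study's results text describes these cells as Smad3PA/PA. CUT&RUN, which maps proteins on chromatin by cutting the DNA next to a bound antibody, was done in 2 knock-in lines. In Smad2HA/+ cells, with an HA tag on 1 of the 2 Smad2 alleles, the antibodies were against H3K27ac (acetylation of histone H3 at active promoters and enhancers), SMAD2, SMAD3 and HA. In Smad3PA/PA cells, with a PA tag on both Smad3 alleles, they were against H3K27ac, SMAD2, SMAD4 and PA. Each antibody had 2 GDF9 and 2 vehicle replicates. IgG control libraries were made in both lines too, but none of the 32 peak lists came from them, and peaks were not compared with IgG here. Both tags sit in every cell of the animal, the strain background was mixed C57BL/6J and 129S5/SvEvBrd, and cells were pooled from several females aged 3 to 4 weeks, so the replicates are not single animals and the p-values rest on a spread between samples that may be technical. In bulk RNA, fewer cells of a type and less RNA per cell cannot be told apart.

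The RNA libraries held between 8827825 and 11416005 reads in genes. Of the defining granulosa markers, Inha (13383 to 14887 normalized counts), Inhba, Foxl2 and Fshr were present in all 4 libraries, whereas Amh and Cyp19a1 stayed at or under 2.9 and 2.3 normalized counts, as did the theca markers Cyp17a1 and Insl3 (at most 2.01). The third gene of the theca list, Ptch1, was counted at 177 to 229. Summed surface epithelium markers ran from 394 to 405 with GDF9 and from 289 to 357 with vehicle, with Lgr5 at or under 2.3, and summed stroma markers from 2498 to 2602 over all 4; no gene of these last 2 lists was called. Of the 7 granulosa markers tested, Esr2 and Hsd17b1 rose and Nr5a2 fell. Malat1 took 0.264% and 0.282% of the counts with GDF9 and 0.108% and 0.11% with vehicle, and mitochondrial genes took 3.07% and 3.38% against 2.35% and 2.37%. Their part in the results below was not tested. Among the peak lists, that of SMAD2 in vehicle-treated Smad3PA/PA cells, replicate 2, stood apart with 23082 peaks over 6.45 Mb, against 58442 to 83620 peaks in the other SMAD and PA lists of that line.

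To ask how strongly each inhibitor was expressed, counts were divided by the length of the longest curated transcript. Ier3, an immediate early gene that also limits cell death, had the highest level, at 1243 and 1261 normalized counts per kb with GDF9 and 1112 and 1058 with vehicle. Dusp6, the cytoplasmic phosphatase specific to ERK, came next at 877 and 860 against 806 and 803, followed by Dusp1, a nuclear phosphatase of p38, JNK and ERK, at 709 and 702 against 699 and 701. Dusp4, a nuclear phosphatase of ERK and JNK, stood at 371 and 388 against 450 and 453. These 4 genes formed a group well above the remaining inhibitors.

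Spry2 was the most abundant Sprouty gene, at 110 and 128 normalized counts per kb with GDF9 and 152 and 137 with vehicle. Spred2 (67.3 and 71.4 against 81.6 and 78.4) and Spred1 (57.7 and 52.1 against 72.5 and 70.1) followed, and Dusp5, a nuclear phosphatase of ERK, lay lower at 37.2 and 34.7 against 34.2 and 41. Spry4 stayed between 20.3 and 23.6 and Spry1 between 12 and 19.2 in the 4 libraries. The order from Ier3 down to Spry1 was the same within each library group by means, and the ranges over all 4 libraries overlapped between no neighbours but Spred2 and Spred1.

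**Figure D1:**
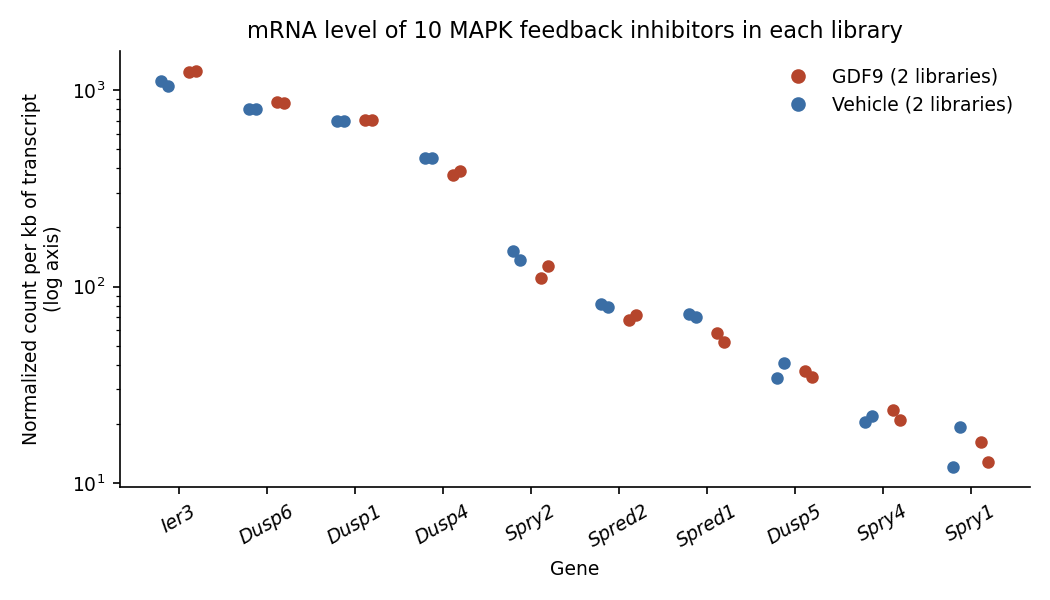
Each point is the normalized count per kb of transcript (log axis) of a gene in 1 RNA-seq library, 2 with GDF9 and 2 with vehicle. Ier3, Dusp6, Dusp1 and Dusp4 lie above 370 in every library and Spry1 between 12 and 19.2.

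The central RNA comparison asked whether GDF9 moved the inhibitors in either direction. Of the 10 genes, 1 rose (Ier3), 2 fell (Spred1 and Dusp4) and 7 did not pass, where a call needed an adjusted p under 0.05 and a log2 change beyond 0.18 in limma. Over all tested genes, 3.14% were called, 2.44% higher and 0.707% lower. The median log2 change of the 10 genes was -0.07, against -0.006 over all tested genes. The GDF9 and vehicle libraries did not overlap for 7 of the 10, with 3 higher and 4 lower, but with 2 libraries a side this was common, at 22.0% higher and 23.2% lower among all tested genes. DESeq2 on the reads recovered from the table called none of the 10, and 3 of them had an unadjusted p under 0.05, while it called 1.12% of all genes. The same 3 genes were called by edgeR's quasi-likelihood test on those reads.

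Among the Sprouty and SPRED genes the strongest change was in Spred1, which encodes a membrane-anchored protein that brings neurofibromin to RAS. It was counted at 365 and 329 with GDF9 and at 458 and 443 with vehicle, so that both GDF9 libraries lay below both vehicle libraries. Its means were 347 ± 25.2 and 451 ± 10.8 normalized counts (SD, n = 2 each), a log2 change of -0.38 ± 0.08 (SE; limma adjusted p = 0.0037). Without vehicle replicate 1 the change was -0.35 with an adjusted p of 0.066, and DESeq2 gave -0.37 with 0.19.

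Spred2, its close relative, was counted at 193 and 205 with GDF9 and at 234 and 225 with vehicle. The 2 groups did not overlap, but the log2 change of -0.20 ± 0.10 (SE) did not pass (limma adjusted p = 0.34). Spry2, which encodes the Sprouty protein that intercepts adaptors and RAF, was counted at 229 and 268 against 318 and 285. Here too the GDF9 libraries were the lower pair, and the log2 change of -0.28 ± 0.10 had a limma adjusted p of 0.12. Without GDF9 replicate 2 the change was -0.40 with an adjusted p of 0.018.

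Spry4 was counted at 111 and 97.7 with GDF9 and at 95.3 and 103 with vehicle, and Spry1 at 40.3 and 31.9 against 29.9 and 47.8. The 2 groups overlapped for both. Their log2 changes of 0.07 ± 0.15 and -0.07 ± 0.25 carried limma adjusted p-values of 0.87 and 0.93, and at these low counts changes of that size were not detectable.

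Of the phosphatase genes, Dusp4 fell. It was counted at 901 and 942 with GDF9 and at 1091 and 1100 with vehicle, 2 groups that did not overlap. The log2 change was -0.25 ± 0.06 (SE; limma adjusted p = 0.0057). The call was lost without vehicle replicate 1 (adjusted p = 0.064), without vehicle replicate 2 (0.075) and in DESeq2 (0.19), while the change stayed between -0.28 and -0.22 in all 12 alternatives.

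Dusp6 was counted at 2454 and 2404 with GDF9 and at 2256 and 2246 with vehicle. Both GDF9 libraries were above both vehicle libraries, but the log2 change of 0.11 ± 0.04 did not pass (limma adjusted p = 0.18), and it lay between 0.10 and 0.12 in the 12 alternatives. Dusp1 was the steadiest, at 1378 and 1363 against 1358 and 1362, with a log2 change of 0.01 ± 0.05 (limma adjusted p = 0.94). It is 1 of the 3 genes counted above as higher without overlap, but only by 1363 against 1362. Dusp5 was counted at 67.5 and 62.9 against 62 and 74.4, and its groups overlapped (log2 change -0.06 ± 0.18, limma adjusted p = 0.92). Thus the 4 phosphatase genes did not share a direction that passed the test.

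Ier3 rose, from 1212 and 1153 with vehicle to 1354 and 1375 with GDF9. The groups did not overlap, and the log2 change was 0.21 ± 0.05 (SE; limma adjusted p = 0.016). It was lost without vehicle replicate 1 (0.24, adjusted p = 0.054), without vehicle replicate 2 (0.17, 0.23), without a filter on low counts (0.088) and in DESeq2 (0.25).

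**Figure D2:**
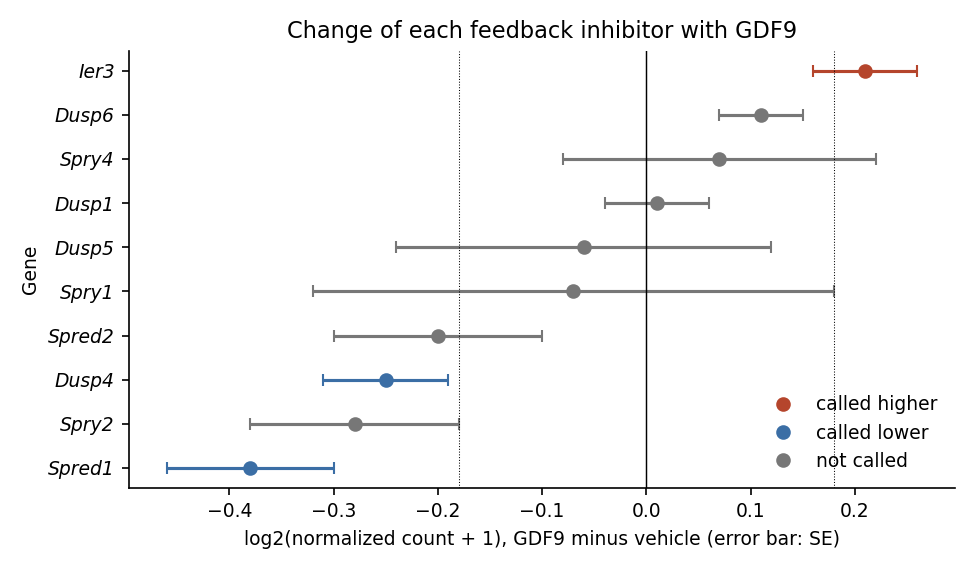
Points are the change of each gene, GDF9 minus vehicle, on the log2(normalized count + 1) scale from 2 libraries a group, with the SE as bars; dotted lines mark the limits of 0.18 on either side. Spred1 and Dusp4 lie beyond the lower limit and Ier3 beyond the upper, and Spry2 and Spred2 lie beyond the lower limit without passing the test.

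The rest of the pathway was followed in 8 further lists, with 90 of 102 genes past the filter on low values. Of these, 6 rose, 1 fell and 83 did not pass, beside 2.44% higher and 0.707% lower among all tested genes, and the median log2 change was 0.0. The lists were chosen with earlier results of these data known. The other SPRY, SPRED and MAP kinase phosphatase genes held none that passed among 8 tested. Spred3 was counted at 257 and 261 with GDF9 and at 242 and 217 with vehicle, Dusp7 at 263 and 235 against 284 and 283, and Dusp9 at 33.2 and 59 against 64.3 and 62. Dusp3, the most abundant of them, was counted at 1704 and 1728 against 1873 and 1757, and Spry3 was listed at 0 in all 4 libraries.

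Among 13 ERK-responsive transcription factor genes, 4 rose and none fell, beside 2.44% and 0.707% of all tested genes. Fos, a subunit of AP-1, was counted at 701 and 668 with GDF9 and at 380 and 346 with vehicle (log2 change 0.91 ± 0.07, limma adjusted p = 2.5e-10). Its relative Fosb was counted at 229 and 204 against 108 and 95.7 (1.08 ± 0.13, 6.2e-07). Egr1, a zinc finger factor, was counted at 1042 and 963 against 614 and 591 (0.73 ± 0.06, 6.5e-10). Ier2 was counted at 610 and 615 against 511 and 515 (0.26 ± 0.07, 0.025). The first 3 of these were called in all 12 alternatives, DESeq2 included, and Ier2 in 6. The other 9 did not pass, and the median log2 change of the list was 0.03. The 2 most abundant of these 9, Fosl2 and Jun, had log2 changes of -0.04 ± 0.04 and 0.12 ± 0.06.

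Upstream, 1 of 9 other brakes on receptors and RAS rose, the RAS GTPase activator Nf1, at 1342 and 1160 against 1050 and 1061 (0.24 ± 0.06, limma adjusted p = 0.014). It kept its call in 7 of 12 alternatives and lost it without GDF9 replicate 1 (adjusted p = 0.29). Lrig1 was counted at 1531 in both GDF9 libraries and at 1531 and 1540 with vehicle, and Pebp1 at 1450 and 1460 against 1584 and 1474. Of 12 ligands of receptor tyrosine kinases, Vegfa rose (1012 and 975 against 829 and 804; 0.28 ± 0.06, limma adjusted p = 0.0022) and Kitl, the ligand of KIT on the oocyte, fell (1837 and 1783 against 2321 and 2128; -0.30 ± 0.05, 0.00011). Kitl was called in all 12 alternatives and Vegfa in 11, all but DESeq2 (adjusted p = 0.075).

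No gene passed among 14 receptor tyrosine kinases, 13 adaptors, exchange factors and RAS genes, 12 RAF, MEK and ERK kinases, or 9 JNK and p38 kinases. Their median log2 changes were 0.05, -0.06, -0.02 and 0.01. For example, the log2 difference of the MEK gene Map2k1 was -0.05 ± 0.05, and those of the receptor genes Igf1r and Fgfr1 were 0.06 ± 0.06 and 0.12 ± 0.06.

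**Figure D3:**
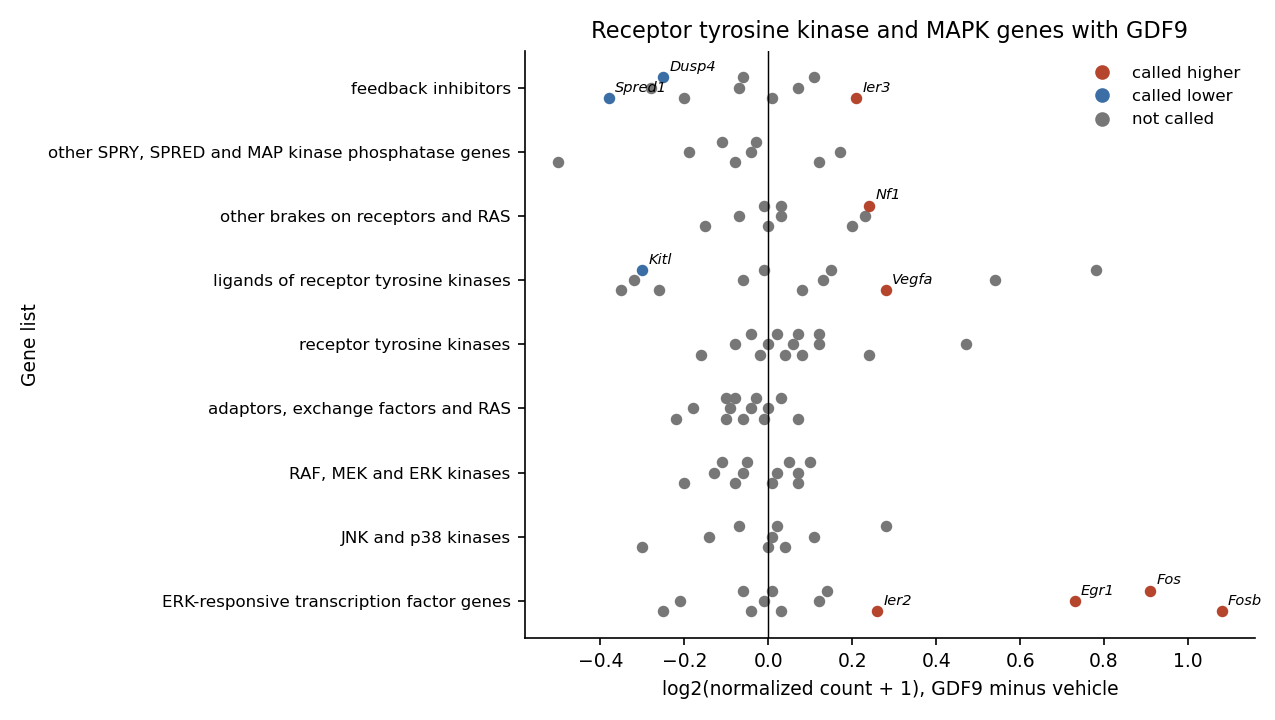
Each point is 1 tested gene of a list, at its change with GDF9 on the log2(normalized count + 1) scale; rows are lists and the vertical scatter within a row has no meaning. Only called genes are named, and of these Fos, Fosb and Egr1 lie farthest right, at 0.91, 1.08 and 0.73; unnamed points beyond 0.5 are ligands that did not pass.

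The chromatin data were then searched for regions near the inhibitors. Overlapping peaks were joined into regions, and a region was kept where both replicates of a group had a peak in it. The deposited peak heights are scaled to spike-in DNA, and they are whole multiples of the signal of 1 fragment within each list, so the number of fragments piled up at the highest point could be read for every peak. The median peak was 10 to 17 fragments high in the SMAD2, SMAD3 and HA lists of Smad2HA/+ cells, and 3 to 5 in the SMAD2, SMAD4 and PA lists of Smad3PA/PA cells.

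H3K27ac regions lay near 9 of the 10 genes in both lines and with both treatments, all but Spry1, which had no H3K27ac peak within 20 kb in any of the 8 lists. Among all tested genes with a position (12531), such a region was near 91.7% with GDF9 and 89.1% with vehicle in Smad2HA/+ cells, and near 85.8% and 86.5% in Smad3PA/PA cells. The count is therefore close to that of expressed genes in general. A peak covered the start site of each of the 9 genes in all 8 lists, where 69% of tested genes had one in all 4 lists of Smad2HA/+ cells and 51.5% in all 4 of Smad3PA/PA cells.

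In Smad2HA/+ cells, SMAD3 regions lay near 9 of the 10 genes with GDF9 and near 10 with vehicle, beside 91.3% and 94.9% of all tested genes. HA regions, which mark tagged SMAD2, lay near 9 with either treatment (90.0% and 93.7%), and SMAD2 regions near 8 with GDF9 and 9 with vehicle (80.2% and 86.9%). With any of these 3 antibodies, 9 genes had a region with GDF9 (95.9%) and 10 with vehicle (97.3%). Proximity to a SMAD peak thus did not set the inhibitors apart from other expressed genes in this line, since nearly all had one.

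In Smad3PA/PA cells such regions were few. With GDF9, SMAD2 regions lay near Dusp6 and Ier3 (25.6% of all tested genes had one), SMAD4 regions near Dusp6 and Ier3 (39.2%) and PA regions near Dusp6 and Spry2 (7.92%). With vehicle, no gene had a SMAD2 region (3.45%), Ier3 and Spred1 had a SMAD4 region (37.1%), and Dusp6 had a PA region (6.74%). With any of the 3 antibodies, 3 genes had a region with GDF9 (54.0%) and 3 with vehicle (42.2%). These regions peaked at 3 to 12 fragments, and the list that stood apart supplies 1 of the 2 SMAD2 vehicle replicates. With replicate 1 alone, 9 genes had a SMAD2 peak with GDF9 and 10 with vehicle, beside 78.4% and 75.8% of all tested genes. With replicate 2 alone they were 7 and 4, beside 79.6% and 42.1%.

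The tallest SMAD peak near any of the 10 genes in Smad2HA/+ cells was that of SMAD3 over the start site of Dusp6. It was 216 and 297 fragments high with GDF9 and 278 and 361 with vehicle, or 8.5 and 11.9 against 11.2 and 10.7 on the spike-in scale. These heights are 16.6 to 24.8 times the median peak of their lists. By the tallest SMAD3 peak within 20 kb, Dusp6 ranked 38 and 29 with GDF9 and 31 and 27 with vehicle among 12531 genes. The 2 treatments overlapped on either scale.

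The summits of the 4 SMAD3 peaks fell between 91 and 64 bases upstream of the Dusp6 start site. The 250 bases before that start, on the forward strand of GRCm38.p6 (the RefSeq assembly of the mm10 build), are shown because they hold these summits, and the capitals run from the farthest to the nearest of them.
Dusp6 promoter, chr10:99262981-99263230: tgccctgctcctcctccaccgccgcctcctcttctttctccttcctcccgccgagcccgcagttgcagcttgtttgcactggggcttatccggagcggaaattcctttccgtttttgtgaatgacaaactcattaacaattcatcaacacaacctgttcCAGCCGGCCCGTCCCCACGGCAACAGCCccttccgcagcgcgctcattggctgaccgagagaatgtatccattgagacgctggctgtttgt
The other antibodies gave far lower peaks over the same start site. HA peaked at 44 and 96 fragments with GDF9 and 70 and 56 with vehicle, or 3.67 to 5.65 times the list median, and SMAD2 at 22 and 43 against 47 and 35, or 2.2 to 4.27 times. In Smad3PA/PA cells the start of Dusp6 carried a SMAD2 peak in 3 of 4 lists, of 4, 8 and 11 fragments, and a SMAD4 peak in 3 of 4, of 6, 7 and 6. No PA peak, which would mark tagged SMAD3, covered it in any of the 4 lists. The nearest PA peaks to Dusp6 had summits 8511 to 10154 bases downstream of its start, of 5 to 9 fragments, 1 in each list.

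**Figure D4:**
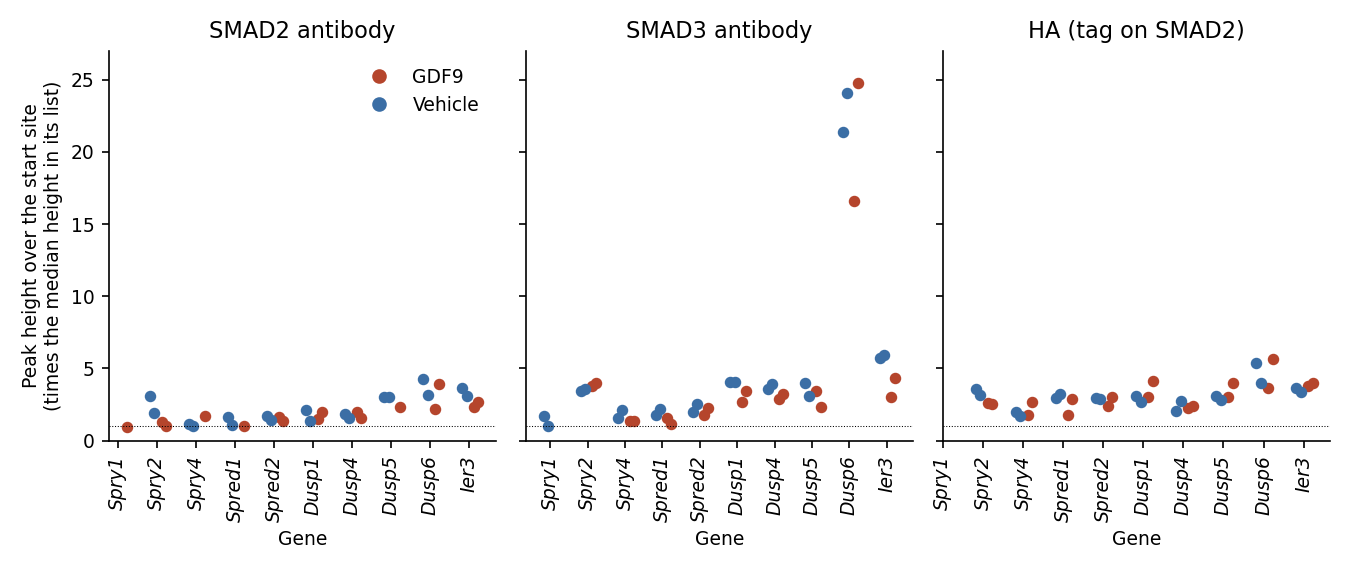
Points are the height of the peak over each start site in the SMAD2, SMAD3 and HA lists of Smad2HA/+ cells, divided by the median height of all peaks in the same list; 2 lists a treatment, no point where no peak covers the start, and the dotted line marks 1. SMAD3 at Dusp6 lies at 16.6 to 24.8, and the other SMAD3 values lie at or under 5.93.

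Over the other start sites the SMAD3 peaks were lower, at most 5.93 times the list median. SMAD3 at Ier3 peaked at 39 and 52 fragments with GDF9 and at 74 and 89 with vehicle, at Spry2 at 49 and 48 against 45 and 54, and at Dusp4 at 37 and 39 against 46 and 59. At Spred1 it was 20 and 14 against 23 and 33, or 1.17 to 2.2 times the list median. At Spry1 no SMAD3 peak covered the start with GDF9, and with vehicle the peaks were 22 and 15 fragments high. Of the 12 SMAD2, SMAD3 and HA lists of Smad2HA/+ cells, a peak covered the start in 12 for Spry2, Spred2, Dusp1, Dusp4, Dusp6 and Ier3, in 11 for Spry4, Spred1 and Dusp5, and in 3 for Spry1. The median over all tested genes was 10, and 34% of them had one in all 12.

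Ier3, the other gene with tall peaks, had them away from its start. The region with the highest total SMAD or HA signal in its window (chr17:35835567-35843709) had its summit 19630 bases downstream, which is 152 bases before the start of another gene, Mdc1. A further one lay upstream of Ier3, with no start site nearer than its own. There HA peaked at 102 and 163 fragments with GDF9 and 101 and 115 with vehicle, SMAD3 at 79 and 96 against 89 and 138, and SMAD2 at 72 and 48 against 60 and 76, with summits 8325 to 8445 bases upstream in these 12 lists. On the spike-in scale the HA heights were 4.95 and 7.22 with GDF9 and 4.15 and 4.12 with vehicle, so the groups did not overlap on that scale, whereas in fragments they did.

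The same upstream place was the strongest SMAD region of Ier3 in Smad3PA/PA cells (chr17:35812892-35813579). SMAD4 peaked there at 9 and 10 fragments with GDF9, at 9 in vehicle replicate 2 and not at all in vehicle replicate 1. It was covered by H3K27ac peaks in all 4 lists of that line. The 300 bases around the HA summits (chr17:35813160-35813459, GRCm38.p6, forward strand) are shown because both lines had a region there, and capitals mark matches to CAGAC, the SMAD-binding CAGA box, and to TGANTCA, the AP-1 element, on either strand.
Ier3 upstream region, chr17:35813160-35813459: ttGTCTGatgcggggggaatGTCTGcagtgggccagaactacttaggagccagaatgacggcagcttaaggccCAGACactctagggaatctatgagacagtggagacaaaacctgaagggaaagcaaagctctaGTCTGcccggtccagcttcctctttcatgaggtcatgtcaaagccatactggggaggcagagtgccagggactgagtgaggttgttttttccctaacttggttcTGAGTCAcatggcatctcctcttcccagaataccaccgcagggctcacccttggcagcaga
It held 4 CAGAC matches and 1 TGANTCA match, which do not overlap. Among the 250 bases before the start of 32851 RefSeq promoters, 42.2% held CAGAC and 6.75% held TGANTCA; these windows are shorter and are promoters, so the shares are background only.

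**Figure D5:**
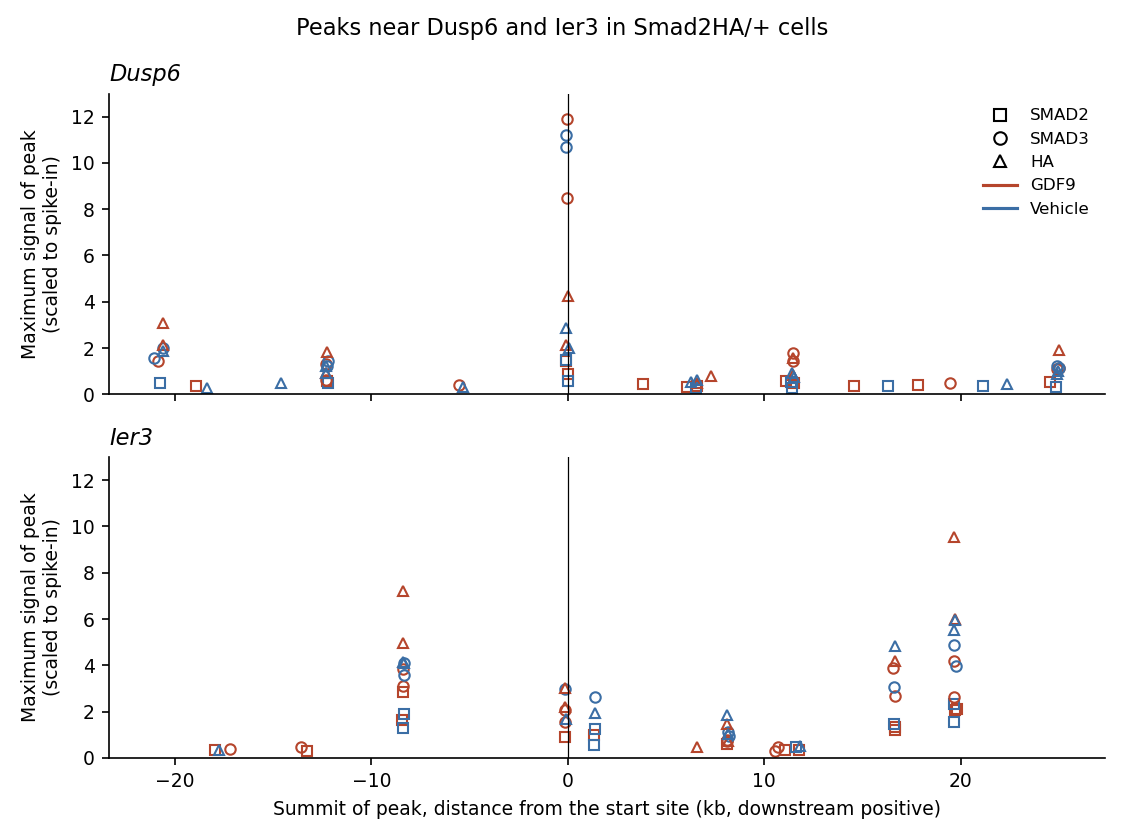
Each symbol is a peak within 20 kb of Dusp6 (top) or Ier3 (bottom) in Smad2HA/+ cells, at the distance of its summit from the start site in kb and its maximum signal on the spike-in scale; squares are SMAD2, circles SMAD3 and triangles HA, in red for GDF9 and blue for vehicle. SMAD3 at the Dusp6 start reaches 8.5 to 11.9, and the tall Ier3 peaks stand about 8.4 kb upstream and 19.6 kb downstream.

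The promoters of 2 called genes were at hand, and they are shown because their mRNAs changed; that of Dusp4 was not among the sequences used here. In Spred1, whose SMAD3 summits lay 533 to 657 bases upstream in 3 of 4 lists, capitals mark matches to GGCGC, a GC-rich SMAD-binding element, on either strand. In Ier3, capitals run between the SMAD3 summits that fell in the window, 163 to 141 bases before the start in 3 of 4 lists. Both genes lie on the forward strand.
Spred1 promoter, chr2:117120821-117121070: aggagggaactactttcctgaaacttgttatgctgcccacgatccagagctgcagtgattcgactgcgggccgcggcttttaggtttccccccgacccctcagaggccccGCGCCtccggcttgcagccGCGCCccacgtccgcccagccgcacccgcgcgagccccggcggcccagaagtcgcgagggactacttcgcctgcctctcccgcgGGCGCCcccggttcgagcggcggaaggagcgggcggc
Ier3 promoter, chr17:35821463-35821712: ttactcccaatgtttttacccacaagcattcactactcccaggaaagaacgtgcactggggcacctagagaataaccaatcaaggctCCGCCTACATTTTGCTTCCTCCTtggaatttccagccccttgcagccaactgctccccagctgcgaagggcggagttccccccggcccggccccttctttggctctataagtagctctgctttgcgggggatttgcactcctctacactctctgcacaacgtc
The Spred1 window held 4 GGCGC matches, 2 of which overlap as 1 palindrome, and no CAGAC. Of the 8 inhibitors with a promoter sequence, 5 held GGCGC (Dusp1, Dusp5, Spred1, Spred2 and Spry2), against 32% of all RefSeq promoters. Those promoters were not matched to the inhibitors in base content or expression, so their shares are background only. Dusp1 alone held CAGAC (42.2% of all) and the cyclic AMP response element TGACGTCA (1.55%), and none held TGANTCA (6.75%). The windows of Dusp6, Ier3 and Spry1 held none of these 4 motifs.

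Taking all 3 antibodies and both treatments in Smad2HA/+ cells, 137 regions lay within 20 kb of the 10 genes, and 57 of them had their summit within 3 kb of the start. Each antibody and treatment was counted separately, so the same place could count more than once. H3K27ac peaks of all 4 lists overlapped 132 of the 137, or 96.4%, against 63.8% of all 151407 such regions in the genome, which also include those far from expressed genes. A region of 1 treatment with no peak in either list of the other was found 10 times, 7.3% against 13% of all regions. These included SMAD2 near Spry2 and Dusp5 with GDF9 and near Spred1 and Spred2 with vehicle, and they were 7 to 20 fragments high.

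To compare treatments, the tallest peak within 20 kb was taken in each list on the spike-in scale. In Smad2HA/+ cells with HA, both GDF9 lists were above both vehicle lists for Dusp5 and Ier3 and below for none, where 18.6% of tested genes with a peak in all 4 lists were higher and 0.807% lower. The Ier3 peak was the downstream one, next to the start of Mdc1. In fragments the treatments overlapped for both genes. Dusp5 stood at 36 and 68 with GDF9 against 40 and 39, and Ier3 at 124 and 215 against 134 and 166. In the same cells, no inhibitor was apart in either direction with SMAD2 (29.7% and 0.328%). With SMAD3, Spry2 was higher (5.52%) and Dusp1, Dusp4, Spred1 and Spry4 were lower (36.5%). The median log2 ratio over all genes was 0.26 for HA, 0.35 for SMAD2 and -0.18 for SMAD3. In fragments, SMAD3 at the Spry2 start overlapped between the treatments, as given above. The 4 lower genes stayed apart in fragments. Dusp1 stood at 35 and 41 with GDF9 against 53 and 61, and Dusp4 at 37 and 39 against 46 and 59. Spred1 stood at 20 and 14 against 23 and 33, and Spry4 at 18 and 16 against 20 and 32. The share of all genes apart in fragments was not taken. Few inhibitors had a peak in all 4 lists of an antibody in Smad3PA/PA cells. With PA, Dusp6 and Spry2 were higher of 3 (30.8% of genes higher, 0.530% lower, median log2 ratio 0.35). The Dusp6 heights were 2.09 and 1.53 with GDF9 and 1.39 in both vehicle lists, and those of Spry2 were 1.5 and 1.53 against 1.39 and 0.774. In fragments they were 7 and 6 against 5 and 9 for Dusp6, and 5 and 6 against 5 and 5 for Spry2. Neither gene was apart on that scale. The PA region of both replicates near Dusp6 in each treatment held no PA peak of the other treatment. With SMAD2, Dusp6 was lower of 4 (1.35% higher, 18.2% lower), at 1.08 and 2.67 against 2.8 and 5.04, the last from the list that stood apart. In fragments these were 5 and 8 against 11 and 4, so the treatments overlapped. With SMAD4 none of 4 was apart (7.42% and 6.52%). With 2 lists a treatment an exact two-sided permutation test cannot go below p = 0.33, and none was run.

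H3K27ac was tested with limma on the summed signal of all regions with a peak in 4 of 4 lists. In Smad2HA/+ cells none of 10 regions near the inhibitors was called, and none of the 7721 tested in all (0%), with 780 at an unadjusted p under 0.05. In Smad3PA/PA cells none of 17 was called, nor any of 16404 (0%), with 124 at an unadjusted p under 0.05. In that line replicate 2 was the higher in both treatments, by a median log2 of 0.64 with GDF9 and 0.46 with vehicle. Left uncentred, this offset enters the SE, so only large changes could have been called. With each list centred on its median, 910 regions were at such a p and none was called. The region over the Dusp6 start in Smad2HA/+ cells had the lowest unadjusted p of the 10, at 888000 and 838000 with GDF9 and 794000 and 785000 with vehicle, on 81910, 88047, 71933 and 85852 covered bases (10.8, 9.52, 11 and 9.14 per base). Its groups did not overlap, with a log2 change of 0.13 ± 0.05 (SE; limma adjusted p = 0.47). In Smad3PA/PA cells the Dusp6 start region stood at 95500 and 150000 against 88300 and 129000, overlapping, with a log2 change of 0.16 ± 0.51.

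At Ier3 the start region gave log2 changes of 0.03 ± 0.05 in Smad2HA/+ and 0.26 ± 0.55 in Smad3PA/PA cells, at Spred1 -0.12 ± 0.06 and 0.43 ± 0.55, and at Dusp4 -0.02 ± 0.05 and -0.10 ± 0.52. None passed. The regions of Smad2HA/+ cells are very broad, 276 kb for Dusp1 and 278 kb for Ier3 against 16.3 and 8.26 kb in Smad3PA/PA cells, so they hold other genes too. With the maximum signal in place of the sum, 0.725% of regions were called in Smad2HA/+ cells, 54 of 56 of them higher with GDF9, and none near the inhibitors. There the tallest point near Dusp1 was 81.5 and 86.7 with GDF9 against 67.1 and 63.7 (log2 change 0.36, limma adjusted p = 0.062), and it lay far upstream of the gene.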

How the data were processed

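Per the labels and the study's methods, the authors aligned directional poly-A RNA-seq reads to mm10 with STAR 2.7.11b, counted them with featureCounts 2.1.1 and deposited gene counts divided by DESeq2 1.48.2 size factors, a normalized signal. CUT&RUN reads were aligned to mm10 with Bowtie2, coverage signal was scaled to E. coli spike-in fragments, and SEACR called peaks separately in each sample; those deposited lists give each peak's total and maximum signal. Peaks merged by the authors with HOMER were not used here.

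The 12597 genes whose mean normalized count reached 10, of 25865 with any entry in the table, were tested by limma 3.58.1 (trend) on log2(normalized count + 1), with Benjamini-Hochberg adjustment; fold changes are on that scale. All values were whole reads at a tolerance of 0.05 reads, so edgeR 4.0.16 and DESeq2 1.42.0 were alternatives. H3K27ac regions were tested in the same way on log2 summed signal. Gene positions and lengths came from RefSeq GRCm38.p6, the mm10 build, by Entrez identifier. Unnamed, almost empty columns of the RNA table were not used. The 10 genes and all lists were likewise chosen with such earlier results known. Named were all 10 inhibitors, other SPRY, SPRED and MAP kinase phosphatase genes by their values, and the called genes of each pathway list with up to 2 of its most abundant others. Regions were taken from the strongest SMAD region of both GDF9 replicates per gene and line and the H3K27ac region at each start. Only those of some genes are printed. The Dusp6 promoter and the Ier3 upstream region in Smad2HA/+ cells were added after their values were seen. Replicates of an RNA group differed by more than sampling noise (chi-square per degree of freedom 1.98 with GDF9 and 1.31 with vehicle). The paired fit is given with the alternatives.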

Additional observations from a re-analysis of the deposited data

How the results depend on the processing

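Spred1, Dusp4 and Ier3 kept their direction in all 12 alternatives. The count of inhibitors called higher went from 1 to 0 without a filter on low counts and in DESeq2, and to between 0 and 1 when 1 library was left out; that called lower went from 2 to 0 in DESeq2 and to between 0 and 3 when 1 library was left out (0 without vehicle replicate 1, 1 without vehicle replicate 2). A lone library was then assumed to vary like the other group. Over all genes, 307 were called higher and 89 lower, against 161 and 26 without the filter, 125 and 16 in DESeq2, 194 and 21 without vehicle replicate 1, 241 and 56 without vehicle replicate 2 and 365 and 218 without GDF9 replicate 2. In DESeq2, 3 pathway genes were called higher in place of 6; with 1 library left out, 4 to 5 were called higher and 1 to 4 lower. Deviations of same-numbered samples were correlated at 0.0178 over genes, and over H3K27ac regions at 0.0267 in Smad2HA/+ and 0.00709 in Smad3PA/PA cells, but in the latter line replicate 2 was the higher in both treatments, by a median of 0.64 with GDF9 and 0.46 with vehicle (log2). The fit with a replicate block called 2 pathway genes lower in place of 1 and 4 H3K27ac regions in Smad3PA/PA cells in place of 0 (1094 against 124 at an unadjusted p under 0.05), none of them near an inhibitor; it changed no call among the 10 genes. Spry1 (-0.41 to 0.26 on the log2 scale), Spry4 (-0.02 to 0.16) and Dusp5 (-0.19 to 0.07) changed sign when 1 library was left out; the cause was not tested. No H3K27ac region near the inhibitors was called under any alternative in either line. In Smad3PA/PA cells, inhibitors with a region of any SMAD or PA antibody went from 3 to 1 within 3 kb of the gene body with either treatment (38.4% of all genes with GDF9, 29.5% with vehicle), and with vehicle to 0 when peaks had to share 50% of both lengths (27.6%); single replicates gave 8 to 10 with GDF9 and 9 to 10 with vehicle, beside 96.8% to 97.9% of all genes. Precision is limited by 2 replicates a group, and in Smad3PA/PA cells by peaks of few fragments.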
